A study of Homo sapiens with 2 samples.

Results

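The splicing factors and heterogeneous nuclear ribonucleoproteins (hnRNPs) described here are the 115 array probes, for 79 genes, whose annotation names 1 gene with a symbol beginning SNRP, SF3, SRSF, HNRNP, PRPF, U2AF or LSM. They were chosen by name, with earlier results of these data known, out of 29187 probes, 25654 of which name 1 gene. RNA came from A375SM, a highly metastatic human melanoma cell line, transduced with a lentivirus carrying either an shRNA (short hairpin RNA) to NFAT1, a transcription factor that calcium signals activate (gene NFATC2), or a non-targeting (NT) shRNA, and sorted for bright GFP. By the design text each line had 3 biological replicates, while each probe has 1 combined value and 1 error from the authors in each line, and the spread between replicates is therefore not known here. A value after ± is that error, whose kind is not stated, and where 2 values are set against each other the first is from the NFAT1-shRNA line. Both lines are GFP-sorted bulk populations. The sources used here do not say whether the replicates were transduced separately. 110 of the 115 probes carry the current symbol. SF3B14 is now SF3B6 and PRPF4B is now PRP4K. LSMD1 (now NAA38), an auxiliary subunit of an N-terminal acetyltransferase, and the antisense RNA HNRNPU-AS1 were taken in by their prefixes only. Another 6 probes naming a gene with such a current symbol, among them HNRPDL, HNRPLL and the probe for LSM8, stand under older symbols and are no members. By detection, 59 genes had a probe detected in both lines, 4 were detected in 1 line at most, and 16 in neither. Of the 79 genes, 68 had a ratio.

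Introns are removed by the spliceosome, which is built from small nuclear RNAs with their protein partners and from many further proteins. Sm proteins form a ring around most spliceosomal RNAs, and LSm proteins form the corresponding ring around U6. SF3A, SF3B and U2AF take part in recognizing the branch site and the 3′ splice site, PRPF proteins act mostly in the U4/U6.U5 particle and in activation, and SR proteins and hnRNPs bind exons and introns and shift the choice of splice sites. Melanocytes and melanoma cells use this machinery as all cells do, and SF3B1 is mutated in a share of mucosal and uveal melanomas.

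A small share of these probes passed the test between the 2 lines, as did a small share of all probes. Of 91 member probes with a log2 ratio (NFAT1-shRNA over NT-shRNA), 2 rose and 2 fell with an adjusted p under 0.05, the Benjamini-Hochberg adjustment running over the 12149 p-values given by the authors' deposited table. That is 4.40% of the members, against 6.91% of all probes with a ratio (3.23% higher and 3.68% lower). Whether these shares differ was not tested, and the count depends on the scale. With the log2 quotient of the intensities minus its median 11 of 91 passed, against 8.94% of all probes. With the plain quotient 25 of 91 did, against 23.0%. SRSF7 and LSM14A fell in the line labelled NFAT1-shRNA, SF3B4 rose, and 1 of the probes of LSM5 rose while the other had a negative ratio. The largest deposited member ratio was 1.97-fold. The median member log2 ratio per the authors' deposited table was 0.07 (middle 50% of probes -0.17 to 0.34), where that of all probes was -0.01. The other 87 member probes with a ratio did not pass, which does not show that they were equal, since the median error propagated to the log2 scale was 0.20.

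At an unadjusted p under 0.05 per the authors' deposited table the members numbered 26 of 91 (28.6%), 14 higher and 12 lower, against 18.3% of all probes with a ratio (9.08% higher and 9.25% lower). With 1 probe per gene 3 of 68 passed the adjusted threshold, where 7.52% of all genes did. More of the members were bright enough to be measured. A detection p-value under 0.01 in both lines was found for 72 of the 115 (62.6%), against 28.7% of all probes. In 1 line only 7 more were detected, each time the NFAT1-shRNA line, where 4.19% of all probes were detected in 1 line only. That 4.19% was not split by line, so the lean to the NFAT1-shRNA line is not shown to be a trait of the members. Of all probes detected in both lines, 83.8% had the higher intensity with NFAT1-shRNA. A ratio was given for 91 of 115, against 41.6% of all probes. Among the probes detected in both lines, the unadjusted share was 25 of 72 (34.7%) for the members and 23.5% for all. With the adjustment still over all probes with a ratio, the adjusted share was 3 of 72 (4.17%) against 8.95%. The error behind a member's value was close to that of other probes: among probes detected in both lines the median deposited error was 7.08% of the intensity with NFAT1-shRNA and 9.83% with NT-shRNA, where all such probes had 7.48% and 9.83%.

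**Figure D1:**
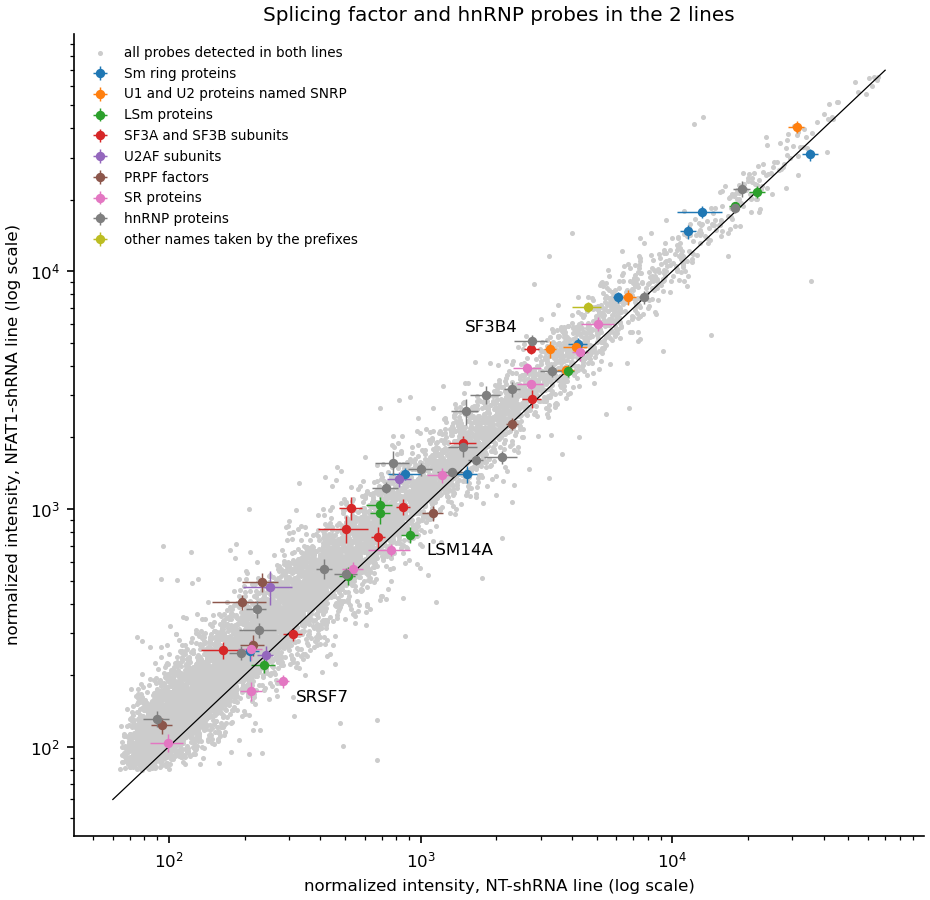
Normalized intensity of each probe in the NT-shRNA line (horizontal, log scale) and in the NFAT1-shRNA line (vertical, log scale), for probes detected in both lines. Grey points are all such probes, coloured points are the members by role with the authors' error as bars, and the black line marks equal intensity. Of these 8372 probes 83.8% lie above the line, with a median quotient of 1.23-fold, while SRSF7 and LSM14A lie below it.

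The scale on which these ratios stand matters for every sign. For the median probe with a ratio the NFAT1-shRNA intensity was the higher by 1.24-fold, while the authors' log2 ratio is centred near 0. The sign of a ratio is therefore only roughly relative to the median probe, as the offset from the quotient of the intensities differed between probes. Against the plain log2 quotient of the intensities, the members' ratios were offset by a median of -0.30, with a range of -0.93 to 0.48. With that quotient 25 of the 91 signs turned, all from negative to positive and none of a probe that passed. With the quotient minus its median 7 of the 91 turned, again none of a probe that passed. The 2 probes of the targeted transcript differ in direction, and neither passed. The brighter NFATC2 probe read 279.2 ± 15.7 there and 199.4 ± 15.2 in the NT-shRNA line, with a log2 ratio of 0.12 per the authors' deposited table (adjusted p 0.832). The dimmer NFATC2 probe, undetected in both lines, read 41.6 ± 9.55 against 57.8 ± 10.6, with a ratio of -0.23 per the authors' deposited table (adjusted p 0.850). These probes do not settle whether the transcript was lowered, and each direction given here is that between the lines as labelled. Of 8 melanocytic markers 7 were detected in both lines and all 8 in at least 1. Endothelial markers (3 of 3) were undetected in both lines, and the leukocyte markers PTPRC, CD3E and LYZ read within 5 units of 0 in both. CD68 of the leukocyte list, KRT10 and KRT14 of the keratinocyte list and LUM of the fibroblast list were detected in both lines, none past the threshold. DCT and TYR, both melanin enzymes, were the markers that passed, and both rose. Summed fibroblast markers read 8380.0 with NFAT1-shRNA and 1639.0 with NT-shRNA. DCN alone makes up most of this, as 1 value of 6267 ± 7799, which was not detected. COL1A2, the fibroblast marker detected in 1 line, goes the other way at 3.34 ± 5.81 against 82.7 ± 8.69. The part of such cells in the values below was not tested.

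SRSF7, an SR protein that binds exonic enhancers and also acts in mRNA export, had the firmest difference among the members. Its single probe (Entrez gene 6432) read 188 ± 12.2 with NFAT1-shRNA and 285 ± 16.8 with NT-shRNA. The deposited intensities stand further apart than their errors, and the higher one is that of the NT-shRNA line although most probes lean the other way. The log2 ratio per the authors' deposited table was -0.96, or 1.94-fold lower in the NFAT1-shRNA line (interval -1.21 to -0.71, adjusted p 1.26e-09). Such 95% intervals use both deposited errors as if they were standard errors. As in any bulk RNA, fewer cells with the transcript and less of it per cell cannot be told apart.

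SF3B4, a subunit of the U2-associated SF3B complex that contacts RNA near the branch site, rose. Its intensity (Entrez gene 10262) was 4699.9 ± 235 with NFAT1-shRNA and 2758 ± 184 with NT-shRNA. In the authors' deposited table the log2 ratio was 0.52, or 1.44-fold (interval 0.29 to 0.76, adjusted p 0.0172). LSM14A, a cytoplasmic LSm-domain protein of P-bodies that acts in translational repression and not in the U6 ring, fell. It read 780.4 ± 63.2 against 905 ± 68.9, values whose errors overlap. The log2 ratio per the authors' deposited table was -0.53, or 1.44-fold lower (interval -0.84 to -0.21, adjusted p 0.0122). Without the centring the LSM14A quotient was -0.21 and did not pass (adjusted p 0.345), so its call rests on that step.

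The sequence upstream of the start site is shown for the members that passed and have an entry in the RefSeq promoter table (build GRCh38.p14), because a factor that binds DNA is the target of the shRNA. Each is the 250 bases before the gene's start, on the gene's strand, which is the minus strand for each of them. Capitals mark the core of the NFAT motif, GGAAA or TTTCC, and an ETS core, CCGGAAG or CTTCCGG, searched on both strands. No LSM14A entry was matched.
SRSF7 chr2:38751495-38751744: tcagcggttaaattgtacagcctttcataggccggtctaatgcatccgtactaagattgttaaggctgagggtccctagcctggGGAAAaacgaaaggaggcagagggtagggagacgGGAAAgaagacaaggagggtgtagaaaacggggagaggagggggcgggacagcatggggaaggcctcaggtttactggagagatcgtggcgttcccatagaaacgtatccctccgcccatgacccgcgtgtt
SF3B4 chr1:149927804-149928053: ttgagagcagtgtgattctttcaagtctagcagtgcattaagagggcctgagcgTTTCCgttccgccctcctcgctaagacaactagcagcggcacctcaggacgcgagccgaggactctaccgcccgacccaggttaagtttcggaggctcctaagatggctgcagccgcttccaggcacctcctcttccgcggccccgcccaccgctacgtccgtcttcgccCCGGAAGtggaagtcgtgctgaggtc
LSM5 chr7:32495284-32495533: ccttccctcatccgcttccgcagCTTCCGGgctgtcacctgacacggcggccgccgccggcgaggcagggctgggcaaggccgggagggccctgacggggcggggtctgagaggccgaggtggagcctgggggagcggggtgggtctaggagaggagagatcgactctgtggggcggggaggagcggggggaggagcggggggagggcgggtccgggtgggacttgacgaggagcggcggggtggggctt

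The NFAT core occurred 2 times upstream of SRSF7, 1 time upstream of SF3B4 and 0 times upstream of LSM5. The ETS core occurred 1 time each upstream of SF3B4 and LSM5 and 0 times upstream of SRSF7. Of the 79 member genes, 68 had an entry. The NFAT core was in 39 of these 68 upstream windows (57.4%) and in 56.0% of all 27305 windows (54.4% of those of protein-coding genes), as 5 letters occur often in 250 bases. The ETS core, a motif common at the start sites of housekeeping genes, was in 22 of 68 (32.4%) and in 8.79% of all windows (11.8% of those of protein-coding genes). These are matches of letters and not sites of binding.

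Among the Sm ring proteins, which bind the spliceosomal RNAs directly, no probe passed. Of 9 probes with a ratio, for 6 of 7 genes, log2 ratios per the authors' deposited table ran from -0.40 to 0.41 with a median of 0.12. SNRPD2 had negative ratios on both of its measured probes, -0.31 where it read 30957 against 35179 and -0.40 where it read 1406 against 1531, per the authors' deposited table (adjusted p 0.211 for each). SNRPF had the largest ratio of the ring per the authors' deposited table, 0.41 (interval -0.04 to 0.86, adjusted p 0.322), reading 1406 ± 80.3 against 871 ± 129.8. SNRPG had 0.18 and -0.01 on its probes and SNRPD3 -0.08 per the authors' deposited table, so the ring's ratios lay on both sides of 0. SNRPD1, undetected with NT-shRNA, read 108.7 ± 15.2 against 62.2 ± 14.2, for a log2 ratio of 0.25 per the authors' deposited table (interval -0.51 to 1.01, adjusted p 0.890). A level that was not detected in a line is uncertain there, and so is the size of such a ratio.

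A pair of Sm probes stood out by their error and not by a call. SNRPE, whose protein sits in every Sm ring, read 2.01 ± 4.30 with NFAT1-shRNA and 11210 ± 9667 with NT-shRNA. The dimmest SNRPB probe likewise read 1.98 ± 4.98 against 509 ± 374.9. Both were undetected in both lines by the authors' detection p-value and carry no ratio. Their NT-shRNA errors were 86.2% and 73.7% of the intensity, and 7 of all 29187 probes combine an NT-shRNA intensity over 500 with an error over 50%, these 2 included. The other SNRPB probes read 17758 against 13072 and 7763 against 6080, with log2 ratios of 0.35 and 0.12 per the authors' deposited table, both short of the threshold. SNRPE has no other probe, so its level could not be compared between the lines.

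**Figure D2:**
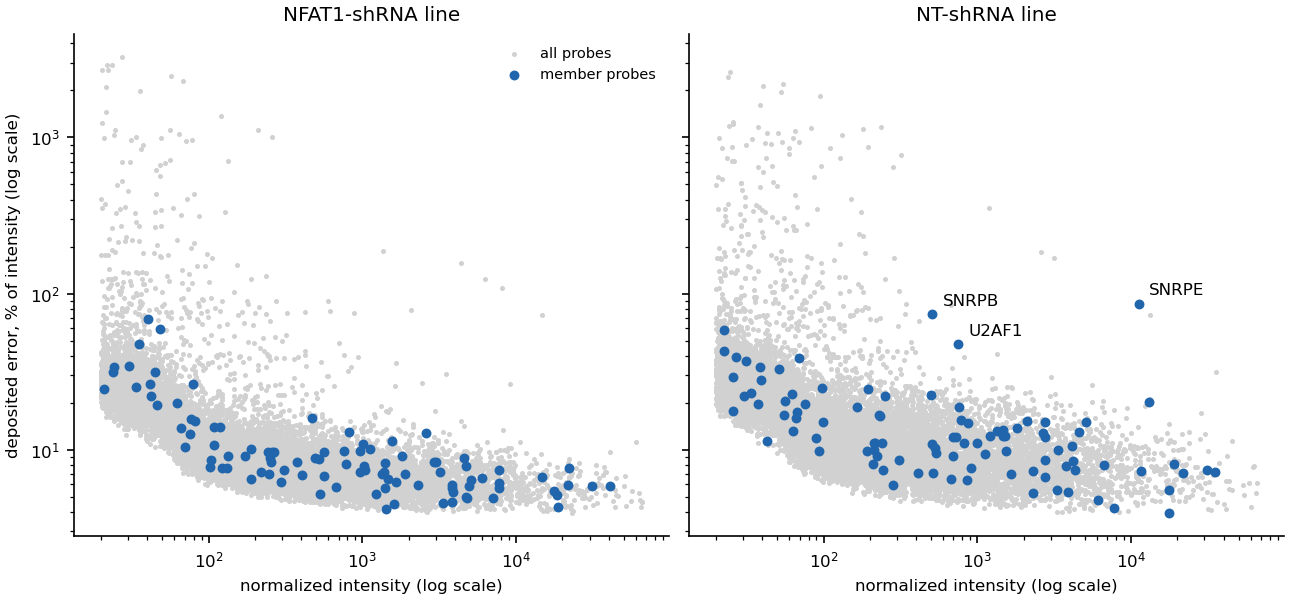
Deposited error as a percentage of the normalized intensity (vertical, log scale) against the intensity (horizontal, log scale) in each line, for probes with an intensity over 20. Grey points are all probes and blue points are members. SNRPE, the dimmest SNRPB probe and U2AF1 stand above the cloud in the NT-shRNA line, at 86.2%, 73.7% and 47.2%.

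The U1 and U2 proteins named SNRP were all detected in both lines, and none passed. SNRPA and SNRPC, both of the U1 particle, had log2 ratios of -0.01 and -0.00 per the authors' deposited table, their intervals reaching -0.34 to 0.32 and -0.31 to 0.31. SNRPA1, a U2 protein, read 4701 ± 372 against 3280.0 ± 182, for a log2 ratio of 0.27 per the authors' deposited table (adjusted p 0.242). Its partner SNRPB2, which binds U2 together with it, had ratios of opposite sign on its 2 probes, 0.24 and -0.22 per the authors' deposited table, each with an unadjusted p just under 0.05 (0.0495 and 0.0479). The brighter SNRPB2 probe read 40552 against 31174 and the dimmer 3829 against 3779, so that with the plain quotient of the intensities the dimmer one turned to 0.019.

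LSm proteins, for 12 genes, had 11 probes with a ratio, of which the LSM5 and LSM14A probes passed. The U6 ring members LSM2, LSM4 and LSM7 had log2 ratios of -0.26, -0.06 and -0.14 on their brightest probes per the authors' deposited table, with no call. LSM7 read 21607 ± 1286 against 21758 ± 1541, a difference well inside the errors. LSM1, which replaces LSM8 in the cytoplasmic ring that promotes decapping, read 524 against 513 and had -0.29 per the authors' deposited table (adjusted p 0.348). LSM10, of the U7 particle that processes histone mRNAs, had 0.15 per the authors' deposited table, and its partner LSM11 was undetected in both lines. LSM3, LSM12 and LSM14B were likewise undetected. LSM6 was detected in the NFAT1-shRNA line alone and on 1 of its probes, where it read 101.6 ± 7.92 against 51.1 ± 16.7, with a ratio of 0.37 per the authors' deposited table (interval -0.58 to 1.32, adjusted p 0.798).

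LSM5, a subunit shared by both LSm rings, showed the widest gap between probes of any member. The brighter probe read 221 ± 15.9 with NFAT1-shRNA and 239 ± 26.3 with NT-shRNA, values that overlap. The dimmer probe read 187.5 ± 19 against 76.2 ± 14.9, and it was not detected in the NT-shRNA line. In the authors' deposited table the log2 ratios were -0.47 (adjusted p 0.103) and 0.98 (adjusted p 0.0383), a gap of 1.45 with a propagated error of 0.37. The table annotates the brighter probe to 1 Ensembl transcript and the dimmer to 9, with none in common. The gene has no single direction here, and the size of the dimmer probe's ratio is uncertain, as that probe was undetected in a line.

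SF3A and SF3B subunits, which make up most of the U2 particle that holds the branch site, had 12 probes with a ratio, of which SF3B4 alone passed. SF3B2, the partner of SF3B4, read 1012 ± 110.1 against 529 ± 54.6. Its log2 ratio per the authors' deposited table was 0.60 (interval 0.18 to 1.02), which missed the threshold over all probes (adjusted p 0.0886). SF3B1, the HEAT-repeat core of the complex, read 297 ± 18.4 against 312 ± 26.7 on its brightest probe. That probe had -0.43 per the authors' deposited table (adjusted p 0.149), and the other SF3B1 probes were undetected. SF3A1 and SF3A3 had -0.16 and 0.11, and SF3B14, which contacts the branch adenosine, -0.17 per the authors' deposited table. SF3B5, a small subunit of the complex, had 0.41 (adjusted p 0.614), and SF3B3 had -0.06, 0.29 and -0.06 on its probes per the authors' deposited table. The subunits thus ranged from -0.43 to 0.60 around a median of -0.00.

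U2AF2, the large U2AF subunit that binds the polypyrimidine tract, read 1334 ± 92.9 against 824 ± 91.0, and its log2 ratio was 0.40 per the authors' deposited table (adjusted p 0.123). U2AF1, the small subunit that contacts the AG at the 3′ splice site, had 0.24 and 0.55 on its probes per the authors' deposited table. The brighter U2AF1 probe read 1119 ± 113 against 749 ± 354, an error of 47.2%, and was not detected in the NT-shRNA line. Its interval of -1.13 to 1.60 leaves its direction unresolved. U2AF1L4, a paralogue of U2AF1, had -0.35 per the authors' deposited table and read 243 in both lines. None of the U2AF probes passed.

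The PRPF factors had no call among 13 probes with a ratio, with a median log2 ratio of 0.28 per the authors' deposited table. Of their 15 probes 6 were detected in both lines (40%), and the median propagated error was 0.31. PRPF8, the large scaffold at the spliceosome's catalytic centre, read 405 ± 27.8 with NFAT1-shRNA and 196 ± 47.6 with NT-shRNA. Its ratio of 0.72 per the authors' deposited table came with the interval 0.01 to 1.44 (adjusted p 0.273). PRPF19, the ubiquitin ligase of the complex named after it, read 492 ± 43.8 against 234 ± 38.3. Also at 0.72 per the authors' deposited table, it came nearer to the threshold (adjusted p 0.0845). Of the factors of the U4/U6.U5 particle, PRPF6 had -0.51 (adjusted p 0.0682) and PRPF31 -0.27 (adjusted p 0.204) per the authors' deposited table. PRPF31 read 2285 ± 135 against 2316 ± 122, nearly the same level before centring. PRPF3 and PRPF4, a pair bound to each other on U4/U6, were detected in the NFAT1-shRNA line alone, at 118.6 and 133.5 against 66.2 and 67.4. Their ratios were 0.52 and 0.63 per the authors' deposited table (adjusted p 0.468 and 0.352). PRPF39 had 0.07 per the authors' deposited table.

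SR proteins had 12 probes with a ratio, and SRSF7 was the one that passed. SRSF8, an SRSF2-like protein, came nearest of the others. Its brighter probe read 171.5 ± 15.6 against 213 ± 21.1, for a log2 ratio of -0.66 (interval -1.04 to -0.28) per the authors' deposited table (adjusted p 0.0592), while the dimmer probe, undetected in both lines, had 0.19. SRSF3, an SR protein of small size that is a close relative of SRSF7, read 5999.5 ± 397 against 5084 ± 762. In the authors' deposited table it stood at 0.03 (interval -0.43 to 0.50), and with the quotient centred on its own median at -0.075. SRSF1, the founding SR protein, had -0.15, and SRSF2 had -0.27 and -0.24 on its 2 probes per the authors' deposited table. SRSF4 had 0.32, SRSF5 and SRSF6 each -0.08, SRSF9 0.06 and SRSF11 -0.43 per the authors' deposited table. Both SRSF12 probes were undetected.

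**Figure D3:**
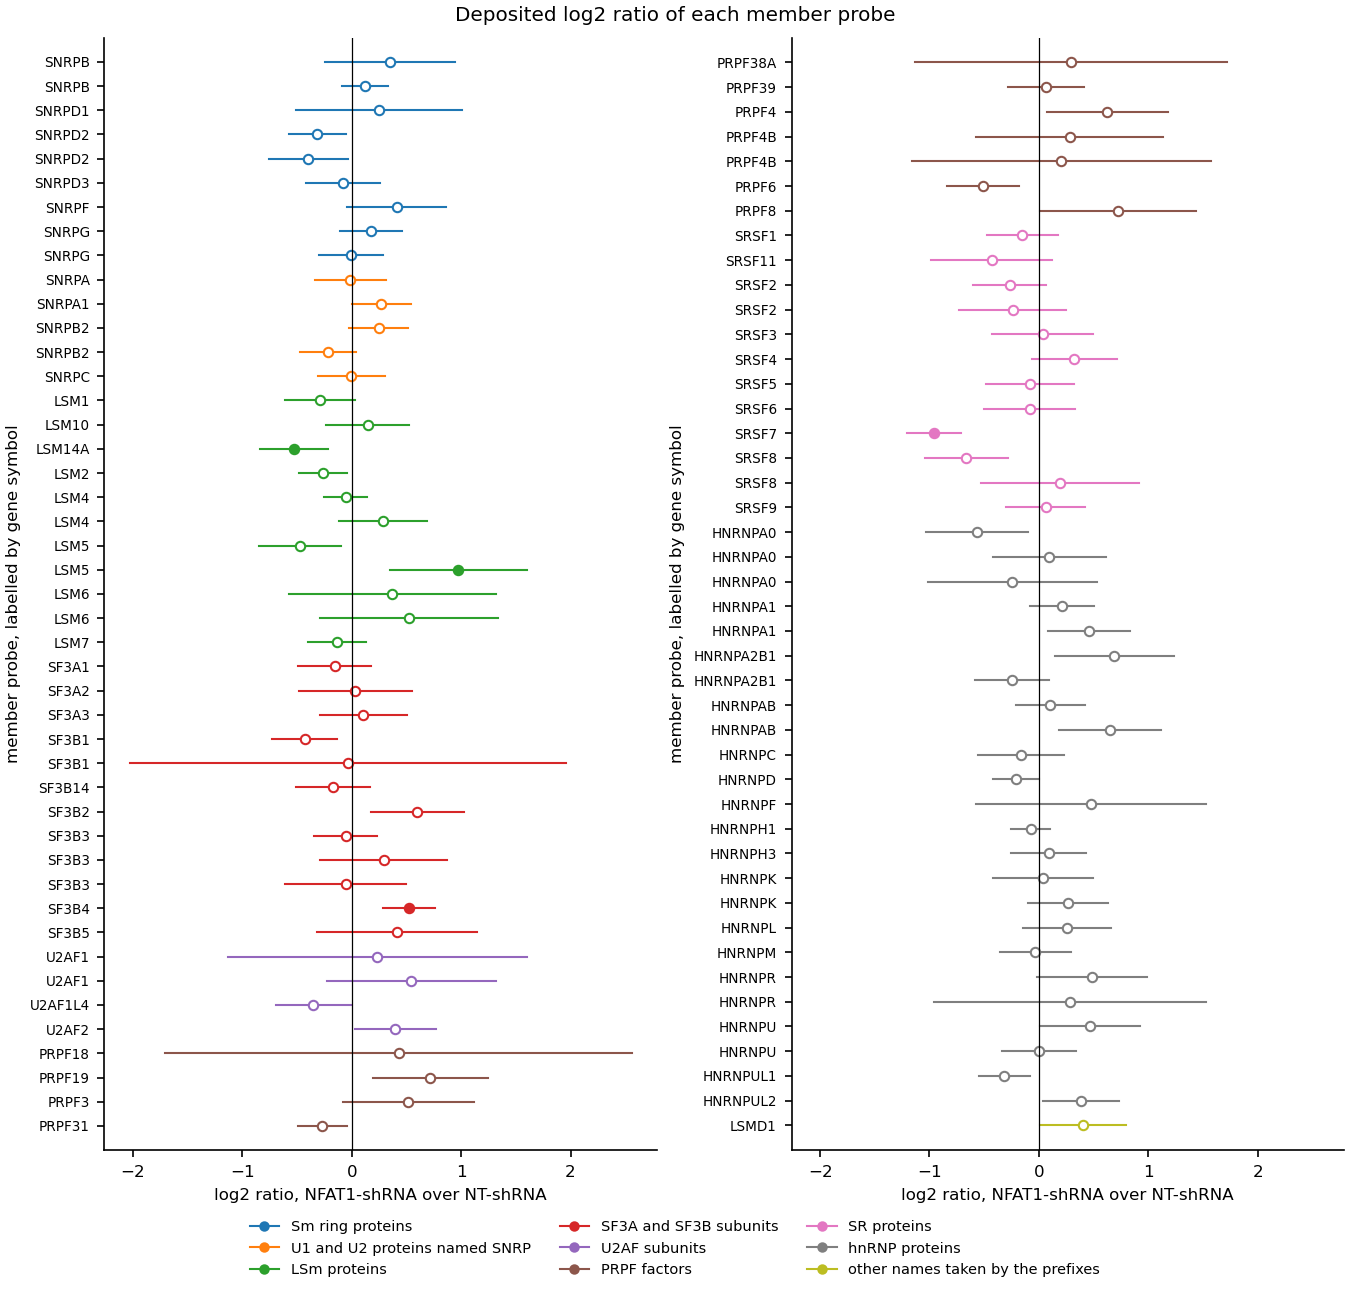
Log2 ratio, NFAT1-shRNA over NT-shRNA, per the authors' deposited table for 89 of the 91 member probes with a ratio (horizontal), with 95% intervals from the deposited errors, coloured by role. Filled points pass an adjusted p of 0.05 over all probes. SRSF7 at -0.96 and 1 of the LSM5 probes at 0.98 lie farthest out, and 63 of the 89 intervals shown include 0.

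No hnRNP probe passed, of 24 with a ratio for 16 of 18 genes. Their log2 ratios per the authors' deposited table ran from -0.57 to 0.69 with a median of 0.10, and before adjustment 6 higher and 2 lower probes had a p under 0.05. HNRNPH1, which binds G-rich elements, read 18428 ± 943 against 17674 ± 694 and had -0.08 per the authors' deposited table. HNRNPD, a regulator of AU-rich mRNAs, read 7773 against 7692 with -0.21, and HNRNPM had -0.03 per the authors' deposited table. These 3 were measured with errors under 10%, and their intervals reach no farther than 0.42 from 0. HNRNPA1, an inhibitor of exon inclusion, had 0.21 and 0.46 on its probes, and HNRNPK, a poly(C)-binding protein, 0.04 and 0.27 per the authors' deposited table. HNRNPUL1 and HNRNPUL2, paralogues of HNRNPU, had -0.32 (adjusted p 0.0543) and 0.39 (adjusted p 0.134) per the authors' deposited table. HNRNPU itself had 0.47 and -0.00 on its measured probes and HNRNPR, an mRNA-binding relative of SYNCRIP, 0.48 (adjusted p 0.270) on its brighter one per the authors' deposited table. HNRNPC, which binds uridine tracts, had -0.17, HNRNPH3 0.09 and HNRNPL, a CA-repeat binding protein, 0.26 per the authors' deposited table. The probes of HNRNPA3, HNRNPF and HNRNPCL1 were undetected in both lines.

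HNRNPAB, a CArG-box and RNA binding protein, had ratios of the same sign but different size on its 2 probes. The brighter probe read 22148 ± 1686 against 18874 ± 1527. The dimmer read 5086 ± 327 against 2765 ± 418. In the authors' deposited table the ratios were 0.10 (adjusted p 0.830) and 0.65 (adjusted p 0.0588). HNRNPA0 had -0.57 on its brightest probe, where it read 1650 ± 103 against 2103 ± 320, and 0.10 and -0.24 on its others per the authors' deposited table.

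Of the 30 member genes with over 1 probe, 21 had a ratio on at least 2 probes, which made 25 pairs. On the authors' scale, ratios of the same gene lay apart by more than a 95% interval of their difference in 4 pairs (16%). The whole table had 10.2% of 2000 pairs. The pairs were those of LSM5, HNRNPA2B1, SNRPB2 and SRSF8, and in each the signs were opposite. Over all member pairs the signs were opposite in 11 of 25 (44.0%), against 40.6% in the table, and the median gap was 0.34 on the log2 scale against 0.26. The LSM5 pair was the 1 pair over 1 apart (4%, against 2.55% of all pairs), and with both probes detected 2 of 13 pairs disagreed (15.4%, against 13.7%). HNRNPA2B1, which binds nuclear pre-mRNA and sorts RNAs for transport, had the clearest disagreement between probes detected in both lines. The brighter probe read 1566 ± 179 against 780 ± 120.0, and the dimmer 534 ± 27.8 against 506 ± 54.8. In the authors' deposited table the ratios were 0.69 and -0.25, a gap of 0.94 ± 0.33, and neither passed (adjusted p 0.164 and 0.352).

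On the authors' scale, pairs that disagreed were annotated to different transcripts. All 4 shared no Ensembl transcript in the table's annotation, with 4 and 2 transcripts for the HNRNPA2B1 probes and 2 and 1 for those of SNRPB2. Of the 8 member pairs annotated to separate transcripts 4 disagreed (50.0%), and of the 11 pairs with a shared transcript 0 did. In the whole table the same shares were 12.7% of 677 pairs and 7.86% of 929 pairs. The member pairs are few, pairs of a gene with 3 probes share a probe, and whether the transcripts themselves differ between the lines was not tested.

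**Figure D4:**
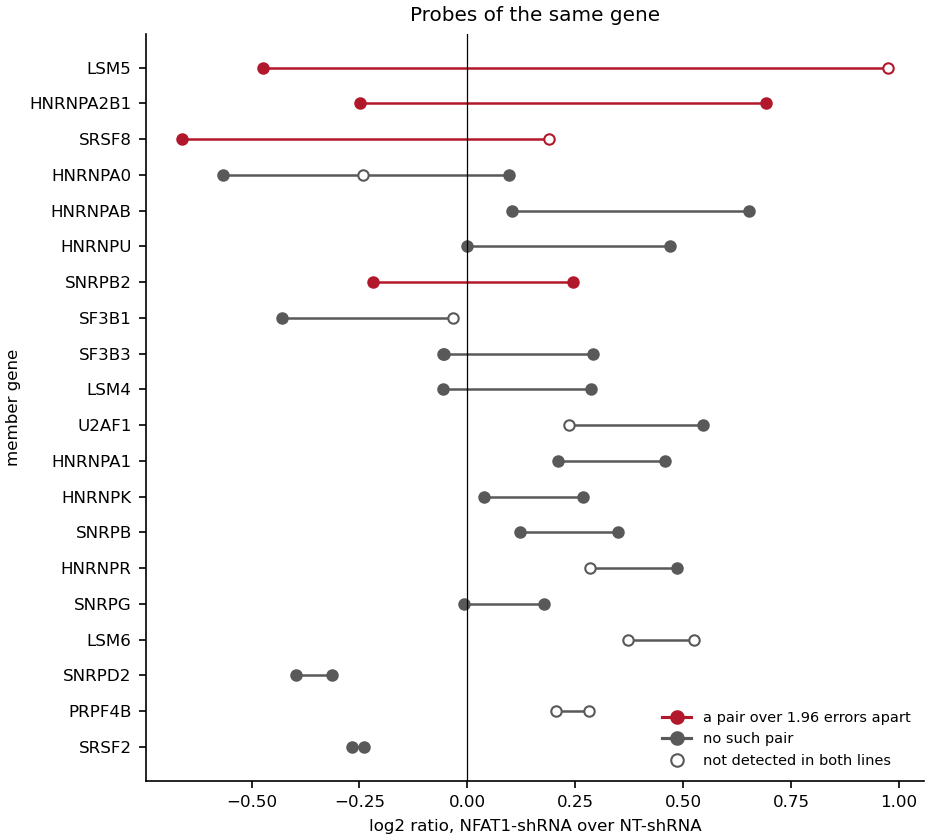
Log2 ratio per the authors' deposited table (horizontal) of each probe of 20 of the 21 member genes with over 1 ratio, joined by a line per gene and ordered by the gap. Red marks genes with a pair apart by more than the 95% interval of its difference, and open points are probes not detected in both lines. LSM5 has the widest gap at 1.45, and SRSF2 the narrowest at 0.03.

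Other genes of splicing were set beside the members in 6 lists by role, chosen with earlier results of these data known. Of 100 probes with a ratio, 10 rose and 1 fell (11.0%, against 6.91% of all probes). Regulators of alternative splicing held 6 of the rises and the fall among 41 probes, the exon junction complex 2 rises among 10, and SR protein kinases and the group of helicases and Prp19 complex 1 each, among 5 and 20. None passed among 15 probes of other snRNP proteins or 9 of the SMN complex and Sm assembly factors. Whether the members and these genes differ in their share of calls was not tested.

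QKI, an RNA-binding protein of the STAR family that steers alternative splicing, fell on its brightest probe. It read 566 ± 32.6 against 997 ± 56.2, and its log2 ratio per the authors' deposited table was -1.13 (adjusted p 1.87e-11). The dimmer QKI probes had 0.23 and -0.45 per the authors' deposited table, both short of the threshold. RNPS1, a splicing activator of the exon junction complex, rose on 1 of 3 probes, at 0.69 per the authors' deposited table (adjusted p 0.0405), with 0.30 and 0.42 on the others. CLK3, a kinase of SR proteins, had 0.46 (adjusted p 0.0460) and the helicase DHX15, which takes apart the spliceosome, 0.48 (adjusted p 0.0319) per the authors' deposited table. Named after their values were seen, the paraspeckle proteins SFPQ and NONO rose, with 0.90 and 0.78 per the authors' deposited table, the second SFPQ probe standing at -0.13. FUBP1, PTBP1, KHDRBS1, TIAL1 and ACIN1, named likewise, also rose, with 0.81, 0.43, 0.48, 0.47 and 0.54 per the authors' deposited table.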

How the data were processed

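Per the labels' protocols, amplified RNA with aminoallyl groups was labelled with Cy5. The dye and the probe names do not match the Illumina chip of the extraction text, so no array maker is named. Per the file headers, the authors deposited a detection p-value, a normalized intensity (linear, some below 0) and an error per probe and line, plus the log2 ratio of the lines with its p-value. The sources used here do not state how values were normalized, how replicates were joined or what the error is. The deposited series matrix held the same intensities (largest relative difference 4.99e-07).

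A model across arrays could not be fitted to 1 value per line, so the authors' p-values were adjusted by Benjamini-Hochberg over 12149 probes with scipy 1.17.1. Any spread between replicates enters through the deposited errors and the authors' p-values alone. Intervals are nominal 95% intervals with the error propagated from both deposited errors. They treat the deposited error as a standard error, which the sources used here do not state. The authors' p-values need not match them: the PRPF8 interval lies above 0 at an unadjusted p of 0.0502. The error propagation and the adjustment were run on simulated intensities whose noise followed the assumed errors. The authors' p-values, on which the calls rest, were not covered by that check. Alternatives changed the scale, the p-value, the probe choice and the detection limit. Arrays per line limit the precision. Current symbols came from RefSeq (GRCh38.p14) by Entrez number. Apart from the upstream windows, which are on GRCh38.p14, gene coordinates are not given, as the array's build is not stated.

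The members and lists were chosen with earlier results of these data known. The rule named genes that passed, genes whose probes disagree and lie over 0.5 apart, and the brightest gene and the largest ratio per role. In the other lists it named the largest called ratio. Other members are named to account for the list, after their values were seen. The values of 1 member gene are not reported here, and the figures labelled by gene leave it out, while counts and medians over the members include it.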

Additional observations from a re-analysis of the deposited data

How the results depend on the processing

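The number of members past the threshold was 4 (2 higher, 2 lower). It was 3 of 68 with 1 probe per gene, 6 of 91 with p from the propagated error and 6 of 72 with only probes detected in both lines, where 7.52%, 7.69% and 10.0% of all probes so chosen passed. For the 6 of 72 the adjustment ran over the detected probes only. With the adjustment over all probes with a ratio, 3 of these 72 passed. Of 91, the member count grew to 25 (24 higher) with the plain log2 quotient, 11 (3 higher) with the quotient minus its median and 8 (4 higher) with an offset of 50. Of all probes 23.0%, 8.94% and 8.72% passed. The member share thus lay above that of all probes with the plain quotient and the quotient minus its median. On the authors' scale it lay below. SRSF7 and SF3B4 passed under each of these scales. LSM14A did not pass with the plain quotient, and LSM5 dropped out with 1 probe per gene and with detected probes only, since the probe that passed is the dimmer one and undetected in the NT-shRNA line. Of 100 probes of the other splicing genes, those past the threshold went from 11 to 35 (34 higher) with the plain quotient, and to 14 (4 lower) with the offset. Of all probes 6.91%, 23.0% and 8.72% passed in these settings. The members' median log2 ratio was 0.34 with the plain quotient (0.31 for all probes) and between -0.00 and 0.08 otherwise. Disagreeing probe pairs went from 4 to 1 when over 1 apart on the log2 scale, and to 2 of 13 with detected probes only. These counts are on the authors' scale, and the genes that disagree depend on it. With the plain quotient and the same errors the SNRPB2 pair fell inside the limit. Pairs of LSM4, HNRNPAB and HNRNPA0 then lay outside it, and those of LSM5, HNRNPA2B1 and SRSF8 stayed outside. Of all 91 member ratios 25 turned sign with the plain quotient, 7 with the quotient minus its median and 7 with the offset, none of a probe that passed on the authors' scale. Among the 25 probes of the genes named by rule, signs turned for SRSF3 (-0.075) and the brighter HNRNPAB probe (-0.083) with the quotient minus its median, for that HNRNPAB probe (-0.00303) with the offset, and for the dimmer probes of SNRPB2 (0.019) and HNRNPA2B1 (0.078) with the plain quotient. No replicate could be left out, and no paired analysis was possible because each line has 1 combined value per probe.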
